A study of Mus musculus with 2 samples.

Results

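The genes described here are the WNT ligands, their receptors and antagonists, and the nearest intracellular parts of the pathway. They were chosen by name on the array, as the Wnt, Frizzled (Fzd), SFRP, Dickkopf (Dkk), R-spondin (Rspo) and Dishevelled (Dvl) families together with Lrp5, Lrp6, Axin1, Axin2, Frzb, Wif1, Lef1, Tcf7, Tcf7l1 and Tcf7l2. This gave 54 genes on 68 probes, of 55681 probes on the array, and each of these probes had 1 spot. RNA came from dissociated hippocampal cells of embryonic day 16.5 ICR mice, grown in 5.5% serum with 5 µM Ara-C added 2 days after plating to limit glia, and harvested at 12 days in vitro. The control culture is labelled only as such, and the TTX culture was kept for 2 days in tetrodotoxin, which plugs sodium channels of the nerve membrane and so silences firing. The labels disagree on its dose, with 2 µM in the design description and 2 mM in the source name of the treated sample. Each group had 1 single-colour array, so no difference below has a replicate check and no test between conditions was possible. The number of arrays limits precision, as does dim signal for many of these genes.

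WNT proteins are secreted, lipid-modified signals that bind Frizzled receptors. Together with the co-receptors LRP5 and LRP6 they recruit Dishevelled and Axin to the membrane, which spares β-catenin from destruction and lets it work with TCF/LEF factors on target genes, while other WNT signals act through Frizzled on cell polarity and calcium without β-catenin. R-spondins raise the amount of receptor at the surface, and SFRPs, Frzb, WIF1 and Dickkopf proteins hold the pathway back. In the hippocampus WNT signals are known for shaping the embryonic hippocampal field and, in neurons, for dendrite growth and synapse assembly.

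Of the 54 genes, 38 were measured, meaning that a probe was well above background on both arrays. At the brightest measured probe of each, 3 were at least 2-fold lower in the TTX culture (Wif1, Wnt10a and Fzd10) and 2 at least 2-fold higher (Sfrp2 and Wnt4). These are 7.89% and 5.26% of the measured members, against 3.4% and 2.09% of the 14016 measured genes of the array. With a 1.5-fold rule 6 members were lower and 5 higher, or 15.8% and 13.2% of the measured members, against 8.64% and 7.66% of all genes. That left 27 members within 1.5-fold. Across the members the median log2 difference, TTX minus control, was 0.16, with 25 of 38 above 0, while the median of all genes was 0.01 and 51.1% of them were above 0. So the family held a few large differences in opposite directions around a median somewhat above that of the array. Its median absolute log2 difference was 0.37, against 0.24 over all genes.

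Signals are Agilent processed signals, quantile normalized between the arrays, on a linear scale. Beside the log2 difference of a pathway gene stands the error that Feature Extraction gives to it, written as ±. It is the software's estimate for these 2 arrays and does not cover the spread between cultures. Spots of 1 probe printed several times gave another measure, a pooled SD of 0.31 for mean signals under 67.8 and 0.06 for those above 2833. For such bright probes the Feature Extraction error was larger, as for Dkk3 (0.20). Members were mostly dim, with 21 of 38 under a mean signal of 200.4 and 4 of the 5 that passed 2-fold among them. Dim genes were also more spread over the whole array. In 5 classes of mean signal, with limits at 67.8, 200.4, 687 and 2833, the shares of all genes at least 2-fold lower were 4.14%, 5.64%, 4.06%, 2.65% and 1.97% from dim to bright. The shares at least 2-fold higher were 3.98%, 3.58%, 2.49%, 1.41% and 0.684%. Of the members, 12 differed by less than their own Feature Extraction error, and 15 by more than 2 such errors.

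**Figure D1:**
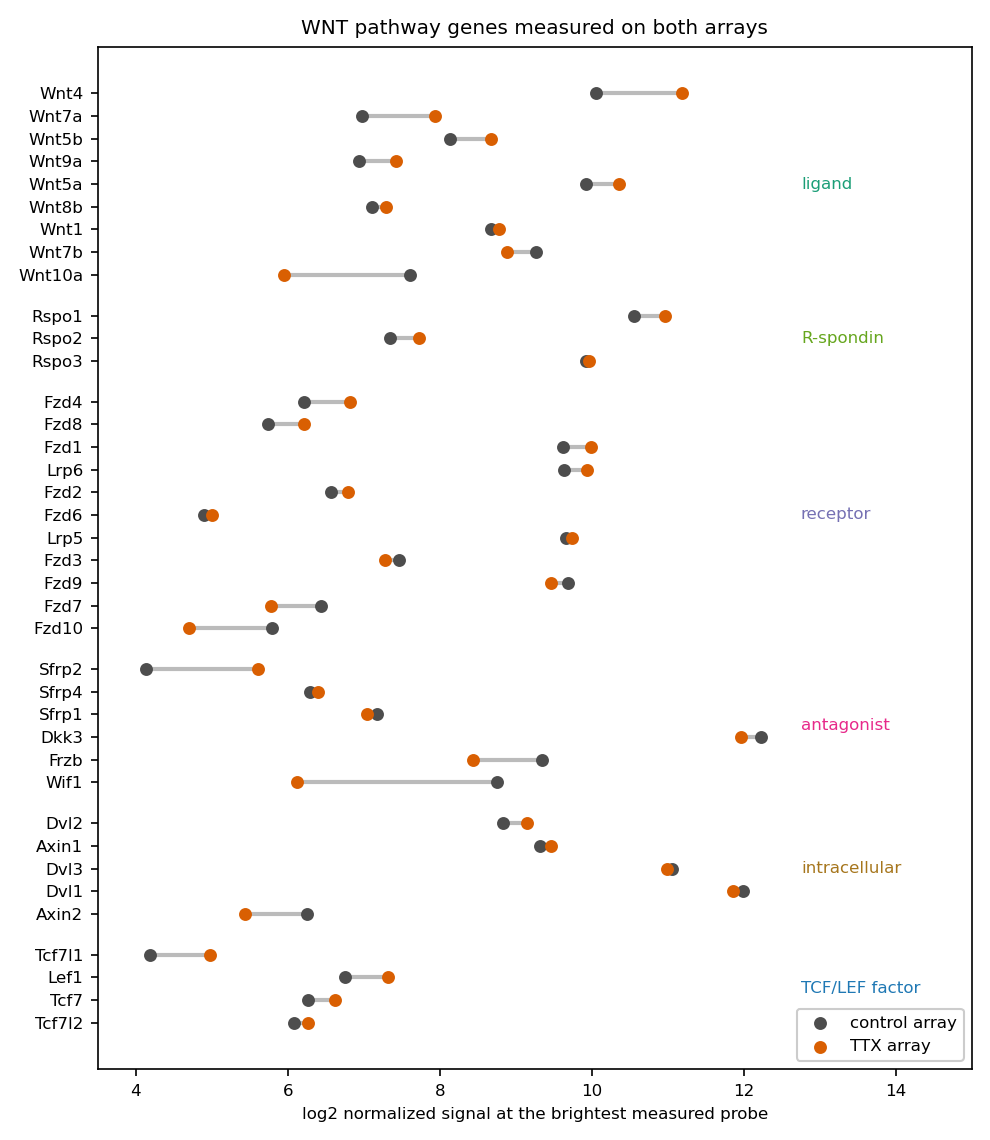
Log2 normalized signal of the 38 measured WNT pathway genes on the control array (grey) and the TTX array (orange), each at its brightest measured probe, grouped by role; each point is 1 array. The longest lines belong to Wif1 (429.8 to 69.8 as linear signal) and Wnt10a (195 to 61.6), where TTX lies to the left, and to Sfrp2 and Wnt4, where it lies to the right.

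Among the ligands, 9 of 19 were measured, and 7 of these 9 were above 0, with a median log2 difference of 0.44. Wnt4, a ligand known from kidney and gonad development that is also made in the forebrain, had a signal of 1059 in control and 2336 in TTX at its brighter probe (chromosome 4, 136855342 to 136855401, mm9). The difference was 1.14 ± 0.20, or 2.21-fold. Its other probe read 232 and 482, a difference of 1.05 ± 0.21, so Wnt4 was the only member past 2-fold with more than 1 measured probe, and both of its probes passed. That probe starts at transcript position 605 and its mm9 coordinates, 136851690 to 136852258, cover 569 bases for 60 bases of sequence, which places it across an exon junction. The brighter probe starts at position 3748 of the same transcript. The junction probe is shown because it reads spliced Wnt4 RNA at a place far from the brighter probe. No base is capitalized in it.

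Wnt4 junction probe: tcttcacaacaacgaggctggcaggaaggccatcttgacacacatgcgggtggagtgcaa

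Wnt7a, a ligand known for promoting presynaptic assembly, read 126 in control and 246 in TTX. Its difference of 0.97 ± 0.21 (1.96-fold) lies just under the 2-fold rule, and it was 1.02 with no normalization between the arrays and 0.64 with normexp background correction. Its close relative Wnt7b was lower instead, with signals of 616 and 473 and a difference of -0.38 ± 0.20. The relatives thus stood on opposite sides of 0 by more than their errors, at 1 probe each, and whether they differ between cultures could not be tested. The Wnt7a probe lies on chromosome 6 (91314653 to 91314712) and the Wnt7b probe on chromosome 15 (85366896 to 85366955, both mm9).

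Wnt10a had the lowest difference among the ligands. Its signal was 195 in control and 61.6 in TTX, a log2 difference of -1.66 ± 0.23 or 3.16-fold (chromosome 1, 74850633 to 74850692, mm9). It kept its side of 2-fold under every normalization tried, and was nearest to 0 at -1.06 with normexp. Only 1.03% of measured genes lay lower.

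Wnt5a, Wnt5b and Wnt9a were higher in TTX by more than their errors. Wnt5a, which acts through the receptor ROR2 as well as Frizzled, read 968 and 1313, a difference of 0.44 ± 0.20. Wnt5b read 280.4 and 409.7, a difference of 0.55 ± 0.21. Wnt9a, with signals of 122 and 172, differed by 0.50 ± 0.21. All 3 stayed under 1.5-fold and above 0 under each scaling.

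Wnt8b, a marker of the embryonic hippocampal primordium, was close to level with signals of 138 and 156 (0.18 ± 0.21). Its other probe was above background on the control array only, at 19.9 and 14.6. Wnt1 had signals of 406 and 439.6 at one probe (0.11 ± 0.21) and 4.15 and 4.28 at its other probe, which was not above background on either array. The Wnt1 difference thus rests on 1 probe and is smaller than its error.

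Of the other 10 ligands, 9 were not well above background on either array: Wnt2, Wnt2b, Wnt3, Wnt3a, Wnt6, Wnt8a, Wnt9b, Wnt10b and Wnt16. Wnt2 is named in studies of activity-driven dendrite growth, and its single probe read 4.34 in control and 6.33 in TTX, below the lowest signals called above background (16.0 and 19.7). No difference in Wnt2 could be seen at this sensitivity in either direction. Wnt11 was above background on the control array only, at 21.0 against 19.7 in TTX, at least 1.07-fold lower in TTX.

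R-spondins 1 to 3, which bind LGR receptors and keep Frizzled at the surface, were measured, and Rspo4 was not above background. Rspo1 read 1509 in control and 2001 in TTX (0.41 ± 0.20). Rspo2 read 162 and 212 (0.39 ± 0.21). Rspo3 was level, with 968 and 997 (0.04 ± 0.20), a value whose sign depended on the scaling, from -0.10 to 0.10. No R-spondin reached 1.5-fold.

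**Figure D2:**
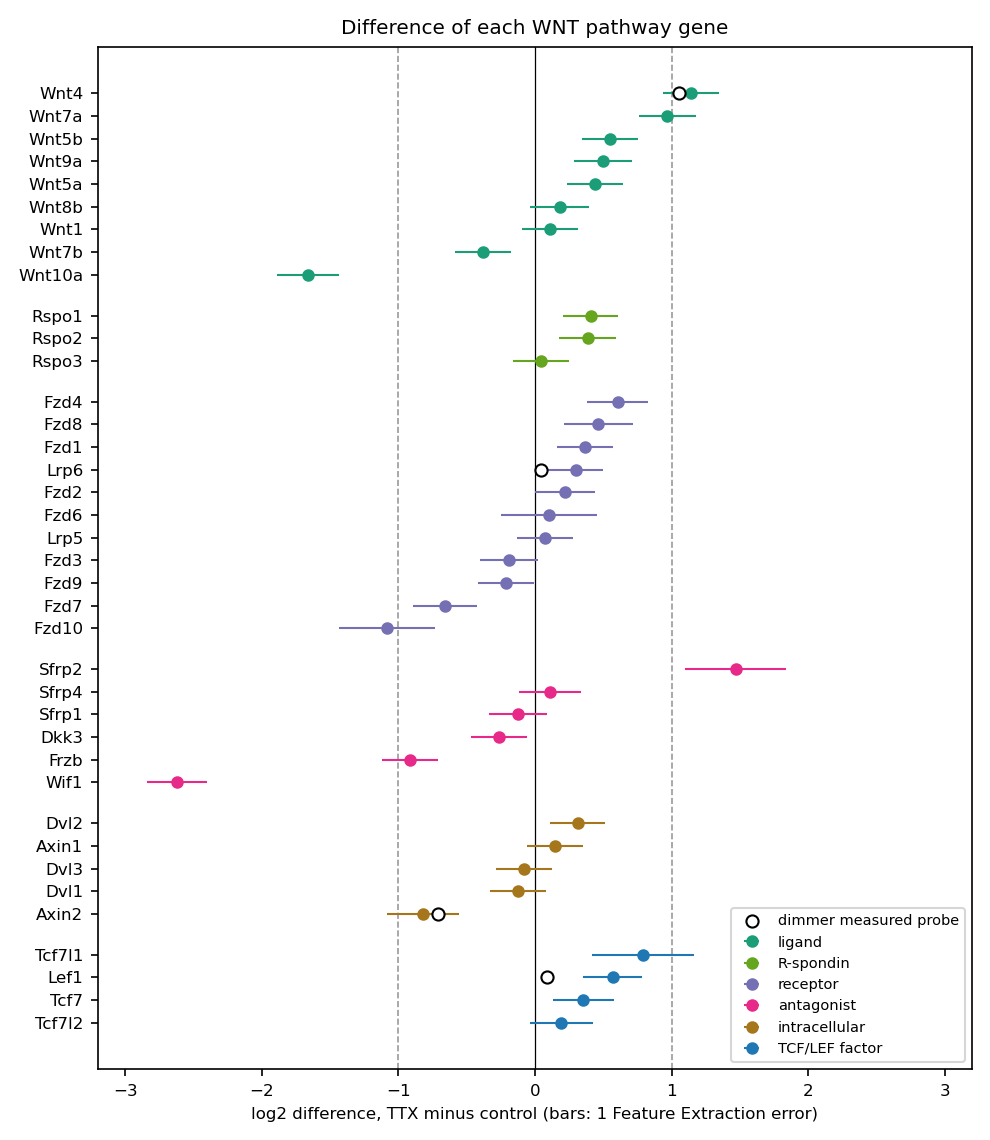
Log2 difference, TTX minus control, of each measured WNT pathway gene at its brightest probe, grouped by role, with bars of 1 Feature Extraction error; open circles are dimmer measured probes of the same gene and dashed lines mark 2-fold. Wif1 (-2.62) lies farthest left and Sfrp2 (1.47) farthest right, and the 2 Wnt4 probes fall together while those of Lef1 do not.

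Receptors differed little apart from 3 Frizzleds. Of 12 receptor genes 11 were measured, with a median of 0.10, 7 above 0 and 4 below. Fzd10 had signals of 55.2 in control and 26.0 in TTX, a difference of -1.08 ± 0.35 or 2.12-fold (chromosome 5, 129109798 to 129109857, mm9). The distance of Fzd10 from the 2-fold rule is smaller than its error. It missed that rule at -0.94 with 75th percentile scaling and with no normalization, narrowly with spike-in scaling, and at -0.38 with normexp correction, which shrinks differences of dim probes. Fzd7, a Frizzled of neural progenitors, read 86.4 and 54.8 (-0.66 ± 0.24), and its other probe was not above background on either array (3.92 and 14.5). Fzd4, a receptor shared by WNTs and norrin, was higher, at 73.9 and 112 (0.60 ± 0.23).

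The brighter Frizzled probes differed less. Fzd1 read 785 and 1012 (0.37 ± 0.20), and Fzd9, a Frizzled known from hippocampal progenitors and synapses, read 820.1 and 708 (-0.21 ± 0.20). Fzd3, which guides axons, read 176 and 155 (-0.19 ± 0.21). Fzd8 (0.46 ± 0.25), Fzd2 (0.22 ± 0.22) and Fzd6 (0.10 ± 0.35) were dim and within 1.5-fold. The other Fzd2 probe was not above background on either array (5.50 and 5.84). Fzd5 was above background on the control array only, at 17.0 and 9.09, both under the lowest signal called on the TTX array, so no fold is given.

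The co-receptors were close to level. Lrp5 read 808 and 850.4 (0.07 ± 0.20), which was -0.05 with spike-in scaling. Lrp6 read 796 and 978 (0.30 ± 0.20) at its brighter probe and 162 and 167 (0.04 ± 0.21) at the other.

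The secreted antagonists held the widest range, from -2.62 to 1.47, with 6 of 10 measured and a median of -0.19. Wif1, which binds WNT proteins outside the cell, was the member farthest from 0. Its signal was 429.8 in control and 69.8 in TTX, a log2 difference of -2.62 ± 0.22 or 6.16-fold (chromosome 10, 120537079 to 120537138, mm9). Only 0.228% of measured genes lay lower. Under the normalizations tried, the Wif1 difference ran from -2.64 to -1.91, always past 2-fold.

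Frzb, a secreted decoy with a Frizzled-like domain, read 652 in control and 346 in TTX. Its difference of -0.91 ± 0.21 (1.89-fold; chromosome 2, 80252582 to 80252641, mm9) lies just under the 2-fold rule. Frzb and Wif1 were both lower, and each rests on 1 spot per array.

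Sfrp2 went the other way. Its signal was 17.6 in control, near the lowest signal called above background, and 48.8 in TTX, a difference of 1.47 ± 0.37 or 2.77-fold (chromosome 3, 83577864 to 83577923, mm9). Normexp correction brought it to 0.43. Of its relatives, Sfrp1 read 144 and 132 (-0.12 ± 0.21) and Sfrp4 read 78.4 and 84.6 (0.11 ± 0.22), both within their errors, Frzb was lower as given above, and Sfrp5 was not above background. Dkk3, a divergent Dickkopf made by many neurons, had signals of 4785 and 3995 (-0.26 ± 0.20). Dkk1, Dkk2 and Dkk4 were not above background on either array, including Dkk1, the Dickkopf linked to synapse loss, at 3.95 and 3.93.

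**Figure D3:**
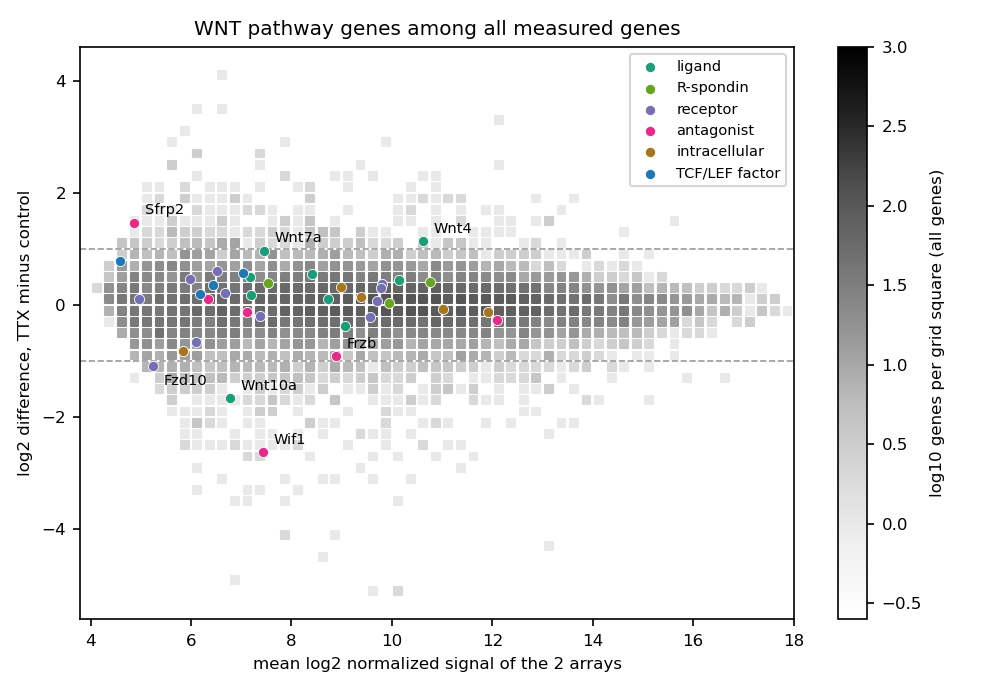
Log2 difference, TTX minus control, against the mean log2 signal of both arrays: grey squares count all 14016 measured genes per grid square on a log10 shade scale, coloured points are the 38 WNT pathway genes by role, and dashed lines mark 2-fold. Sfrp2 (1.47) and Fzd10 (-1.08) lie at the dim left edge of the cloud, Wif1 (-2.62) is the lowest member, and Wnt4 (1.14) lies farther right, among brighter genes.

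Inside the cell, the Dishevelled proteins, which relay the Frizzled signal, were near level. Dvl1 read 4048 and 3719 (-0.12 ± 0.20), Dvl3 read 2135 and 2022 (-0.08 ± 0.20) and Dvl2 read 454 and 564 (0.31 ± 0.20). The other Dvl2 probe was above background on the control array only, at 18.9 and 15.4, both under the lowest signal called on the TTX array. Axin1, the scaffold of the β-catenin destruction complex, differed by 0.15 ± 0.20, with signals of 635 and 704. Axin2 differed from them. It is a related scaffold and a widely used readout of β-catenin signalling, since it is itself a target of TCF/LEF factors. Axin2 read 76.3 in control and 43.2 in TTX at its brighter probe (-0.82 ± 0.26; chromosome 11, 108812034 to 108812093, mm9). At the other it read 39.6 and 24.2 (-0.71 ± 0.36; 108803927 to 108803986). Both probes were lower in TTX by 1.5-fold or more, from dim signals, and the gene value was -0.36 with normexp correction. The dimmer probe was chosen after its values were seen and is shown because it reads the transcript at position 1971, away from the brighter one at position 4196, whose 60 bases are 80.0% A and T. No base is capitalized in it.

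Axin2 upstream probe: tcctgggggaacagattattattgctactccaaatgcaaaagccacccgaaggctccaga

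All 4 TCF/LEF factors, the DNA-binding partners of β-catenin, were above 0, with a median of 0.46. Tcf7l1, mostly a repressor, was dim at 18.2 and 31.5 (0.79 ± 0.37). Tcf7 read 77.1 and 98.5 (0.35 ± 0.22) at 1 probe, and its other probe was not above background on either array (9.85 and 4.12). Tcf7l2 read 67.6 and 77.2 (0.19 ± 0.23) at the probe measured on both arrays, and another of its probes was above background on the TTX array only, at 4.02 and 38.3, at least 2.39-fold higher. Of all genes seen on the TTX array only, 54.2% had a bound of at least 2-fold. These Tcf7l2 probes do not give 1 value. Lef1 read 108 and 160.1 (0.57 ± 0.21; chromosome 3, 130926200 to 130926259, mm9) at one probe and 41.0 and 43.5 (0.09 ± 0.27) at the other, whose coordinates, 130907851 to 130926012, span 18162 bases and so cross an intron. The Lef1 difference therefore rests on 1 of 2 probes, and Axin2 and the TCF/LEF factors lay on opposite sides of 0.

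The shares of dim genes past 2-fold differed between the upper and lower rows of the array, which was not tested. Among genes with a mean signal under 67.8, 5.75% were at least 2-fold higher in TTX in rows 1 to 192 and 2.08% in rows 193 to 384, and the shares at least 2-fold lower were 3.15% and 5.21%. Sfrp2 lies in row 366, Tcf7l1 in row 206, Fzd10 in row 120, Axin2 in rows 121 and 122, and the Tcf7l2 probe seen on TTX only in row 8. The part of position in any of these differences was not tested.

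Other genes of the pathway, from a list of 62 that excludes the members, had the same median as the members, 0.16. Of these, 54 were measured and 41 were above 0. At least 2-fold lower was 1 gene and at least 2-fold higher 1 gene, each 1.85% of those measured, against 3.4% and 2.09% of all genes. With a 1.5-fold rule 3 were lower and 7 higher, or 5.56% and 13.0%, against 8.64% and 7.66% of all genes. Signal level was not matched between this list and the members. Kremen1, a receptor through which Dickkopf proteins remove LRP5 and LRP6, read 682 in control and 312 in TTX (-1.13 ± 0.21). Celsr1, a large cadherin of planar cell polarity, read 242 and 566 (1.22 ± 0.21). Lgr5, an R-spondin receptor and β-catenin target, was above background on the control array only, at 55.7 and 4.35, at least 2.83-fold lower in TTX. Of all genes seen on the control array only, 17.4% had a bound of at least 2-fold. Further known β-catenin targets on the list were named after their values were seen. Above 0 were Myc (0.67 ± 0.21), Notum (0.28 ± 0.20), Ccnd1 (0.18 ± 0.20), Znrf3 (0.12 ± 0.27), Nkd1 (0.08 ± 0.22) and Rnf43 (0.01 ± 0.25). Sp5 was above background on the TTX array only (at least 1.40-fold higher). Apcdd1 was below 0 (-0.34 ± 0.21). The targets including Axin2 and Lgr5 therefore lay on both sides. β-catenin itself (Ctnnb1) read 6058 and 7238 (0.26 ± 0.20) and its kinase Gsk3b read 10042 and 9031 (-0.15 ± 0.20). The 3 measured Gsk3b probes ran from -0.15 to 0.07, on both sides of 0.

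Of the genes needed to make and release WNT proteins, Porcn, which attaches the lipid, was within its error at 9767 and 10196 (0.06 ± 0.20). The carrier Wls was higher, at 475 and 608 (0.36 ± 0.20). Ror2 was not above background. Prickle1 (-0.99 ± 0.20), Apc2 (0.80 ± 0.20), Vangl1 (0.82 ± 0.21) and Tnik (0.84 ± 0.20) were the next largest differences, picked after their values were seen. Prickle1 and Vangl1 are, like Celsr1, planar cell polarity genes, so members of that arm lay on both sides of 0.

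**Figure D4:**
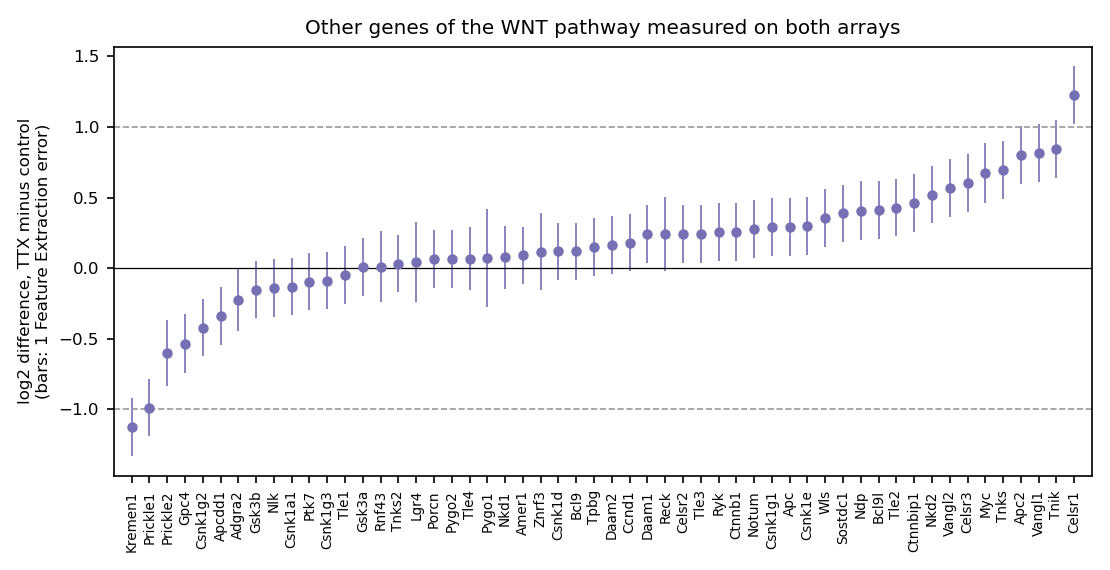
Log2 difference, TTX minus control, of the 54 measured genes on the list of other WNT pathway genes, ordered by value, with bars of 1 Feature Extraction error and dashed lines at 2-fold. Kremen1 (-1.13) and Celsr1 (1.22) are the points past 2-fold, and 41 of 54 points lie above 0.

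Of the 54 members, 37 had an entry in the promoter table of RefSeq (assembly GRCm38.p6), with 45 start sites. The letters CTTTGAT or CTTTGAA, which TCF/LEF factors bind, were sought on both strands of the 250 bases before each start and found at Dkk1, Wnt11 and Wnt5b, or 6.67% of the starts against 7.48% of 32851 starts of all genes. The letters TGACGTCA, bound by CREB, were found at none of the 45 (1.55% of all starts), and the shorter TGACG, which lies within it, at 13.3% (17.8% of all). None of these letters stood in this window at Wif1, Wnt4, Sfrp2 or Fzd10, and Wnt10a had no entry in the table.

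The cultures hold more than neurons, and fewer cells of a type cannot be told apart here from less RNA per cell. All 7 neuron markers were measured, 3 above 0 and 4 below, with a median of -0.22 and a summed signal of 127745 in control and 117871 in TTX. At least 1.5-fold lower were 2 of them, Rbfox3 (-0.81) and Gad1 (-0.70), named after their values were seen. Of 6 measured astrocyte markers 4 were above 0, with sums of 8838 and 11756. Gfap, named after its values were seen, read 4917 and 8423, while Slc1a2 went the other way at 1794 and 867 (-1.05). Of the rest, also named after their values were seen, Aqp4 (0.24), Slc1a3 (0.40) and Sox9 (0.56) were above 0 and Aldh1l1 (-0.14) below. Gja1 was above background on TTX only. Of 5 measured fibroblast or meningeal markers 4 were above 0, with sums of 869.9 and 1464, most of it from Fbln1 (2.38), while Lum was above background on TTX only (at least 3.04-fold higher) and Pdgfra on neither. The lists of Cajal-Retzius cells (4 of 5 below 0, but Calb2 at 2.27 took the sum from 1362 to 4718) and choroid plexus (3 of 3 measured above 0, Ttr at 1.01, sums of 299 and 408, Kl and Aqp1 not above background) differed as well.

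Microglia (2 of 4 above 0, sums of 972 and 915), oligodendrocyte (3 of 4, 1489 and 1683) and endothelial markers (0 of 3, 2551 and 2166) were also listed. In proportion, their sums differed less than those of the lists above other than neurons. Cx3cr1, P2ry12, Olig2, Sox10, Cdh5 and Cldn5 were not above background. In the list of cycling cells, 2 of 5 were measured, with sums of 305 and 608. The rise came from Mki67, at 31.6 and 352 (3.48), while Birc5, named after its values were seen, read 274 and 255 (-0.10). Ccnb1 was above background on control only (at least 2.93-fold lower) and Top2a and Cdk1 on neither. The part of these cell types in the WNT gene differences was not tested. Arc and Fos, transcripts that neuronal firing induces, read 4641 and 127 (-5.19) and 330.2 and 54.1 (-2.61), so the array labelled TTX had the low activity-induced transcripts.

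**Figure D5:**
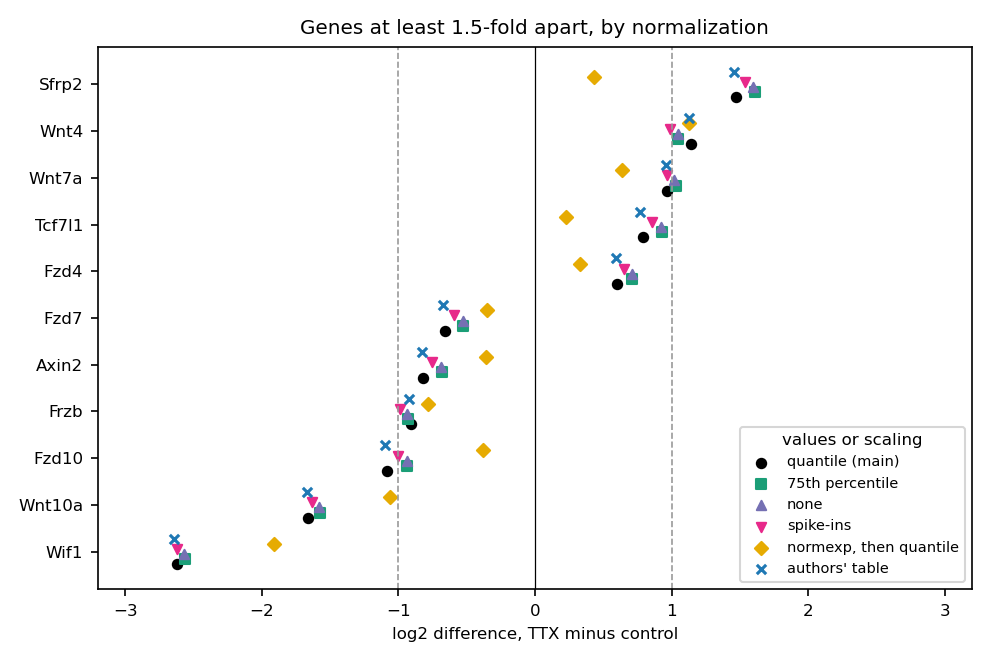
Log2 difference, TTX minus control, of the 11 WNT pathway genes at least 1.5-fold apart, under quantile normalization and the 5 other scalings or sources of values; dashed lines mark 2-fold. Wif1 and Wnt10a stay past 2-fold throughout, Wnt4 runs from 0.99 to 1.14, and normexp values (yellow diamonds) of the dim genes Sfrp2, Fzd10 and Tcf7l1 lie nearer to 0.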

How the data were processed

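Linear spot intensity in the deposited scanner files is the processed signal, with background already taken off, from Agilent Feature Extraction 10.7.1.1 per the file headers (9.5.1.1 in the submitters' processing notes). The deposited value table holds linear intensity, quantile normalized per the series' design text, and its differences correlated with those here at 0.9999 over 27398 measured probes. Flags of 0 or 1 in the deposited files mark outliers and spots well above background. These flags stood at 54.2% of spots on control and 52.2% on TTX.

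Here 291 outlier spots, none of a member, were left out, processed signals were quantile normalized (Python 3.11.15, numpy 2.4.6), put on a log2 scale and averaged per probe. Probes counted as measured if a share of 0.5 or more of their spots was flagged well above background, on each array, and the brightest such probe stood for the gene. Bounds used the higher of the dim signal and the lowest signal above background. Coordinates are those of mm9 in the files, no mm9 gene annotation was used, and all 54 member names matched RefSeq symbols (GRCm38.p6), which also named the 14016 genes. The normexp correction (limma 3.58.1) had an offset of 50. Steps were tested on data simulated from the control array, with the same noise at every signal level and the control's background flags. That simulation did not cover the larger spread of dim probes or genes seen on 1 array only. Every member may be named. Other pathway genes and markers are named where at least 2-fold apart, as are Ctnnb1, Gsk3b, Wls, Porcn, Ror2, Arc and Fos, and further ones only where stated or where a list's unmeasured genes are given. Members and lists were chosen with earlier results of these data known.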

Additional observations from a re-analysis of the deposited data

How the results depend on the processing

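No paired analysis was possible because each group had 1 array. The counts of members at least 2-fold lower and higher, 3 and 2, became 6 and 5 with a 1.5-fold rule and 0 and 1 of 25 with the stricter filter on dim probes (above percentile 25 on both arrays), which drops Wif1, Wnt10a, Fzd10 and Sfrp2 by construction. The count lower was 2 with 75th percentile scaling, no normalization, spike-in scaling and normexp, since Fzd10 fell short, at -0.94 with the former pair, just inside 2-fold with spike-in scaling and at -0.38 with normexp. The count higher was 3 with 75th percentile scaling and with no normalization, which added Wnt7a (1.03 and 1.02). It was 1 with spike-in scaling, which put Wnt4 at 0.99, and 1 with normexp, which put Sfrp2 at 0.43. Medians of the members ran from 0.11 to 0.24 and of the other pathway genes from 0.11 to 0.24. With spike-in scaling the all-gene median was -0.09 in place of 0.01. No member past 2-fold changed sign. Under 5 other scalings or sources 36 of 38 members kept their sign, the exceptions being Lrp5 and Rspo3. Beyond spot error 14 members moved with normexp, 12 with spike-in scaling, 7 without normalization, 7 when scaled to the 75th percentile and 2 when probes were averaged, and none with the authors' deposited values. Signal over background limits the 16 members not measured.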
